A study of Mus musculus with 6 samples.

Results

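Bhlhe40, Bnip3, Bnip3l, Ddit4, Ndrg1, Egln1, Egln3, Hif1a, Epas1 and Adm are 10 genes of the cellular response to low oxygen and related stress, and they were followed in mouse bone marrow stem cells that carried the leukaemia kinase BCR/ABL, with and without its inhibitor imatinib. Members were all probe sets whose platform annotation named 1 of these genes and no other. This gave 20 probe sets for 9 genes, out of 35877 probe sets with a gene symbol and 18193 genes. Bnip3l was not measured under this rule, because its 3 probe sets also carry the symbol of its pseudogene Bnip3l-ps. Ndrg1 had 5 probe sets, Hif1a 4, Egln1, Egln3, Epas1 and Adm 2 each, and Bhlhe40, Bnip3 and Ddit4 1 each. Probe sets of 1 gene share a transcript and are not independent measurements.

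The samples were 6 arrays, 2 in each of 3 groups of transduced marrow cells, all sorted by flow cytometry for GFP, c-Kit and Sca-1 and against lineage markers. The vector group carried the empty GFP vector. The BCR/ABL group expressed BCR/ABL, the tyrosine kinase fusion that drives chronic myeloid leukaemia (CML), and came from untreated CML mice. The BCR/ABL imatinib group expressed BCR/ABL and came from CML mice given imatinib, a drug that blocks the kinase. The sources used here give neither the strain and age of the mice nor the dose and timing of imatinib, and they do not tell if replicate arrays stand for separate animals. Each p-value hence rests on a spread between arrays that may be purely technical.

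Cells sense oxygen through the hypoxia-inducible factors HIF-1 and HIF-2, whose oxygen-regulated alpha subunits are encoded by Hif1a and Epas1. When oxygen is present, prolyl hydroxylases such as those encoded by Egln1 and Egln3 mark the alpha subunits for destruction through the VHL protein. When oxygen is low, the alpha subunits persist, pair with ARNT and bind short DNA elements with the core ACGTG or GCGTG near genes such as Bnip3, Ddit4, Ndrg1, Adm and Egln3. Much of this control acts on protein stability, which transcript arrays do not measure. Haematopoietic stem cells live in marrow sites of low oxygen, and several of the target genes also respond to other stresses.

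RefSeq promoter sequences of assembly GRCm38.p6 were matched by symbol for 6 of the 10 genes: Bnip3, Ddit4, Egln1, Egln3, Hif1a and Adm. The 250 bases before the annotated start were searched on both strands for ACGTG and GCGTG, the cores of the HIF element. All 6 windows held at least 1 match, against 38.6% of 32851 windows of the same length in the table. Both cores contain CG, and the share of G and C ran from 50.8% (Egln3) to 86.0% (Egln1) in the 6 windows. The 32851 windows were not matched to them in this, so the shares cannot tell an excess of matches from base composition. For ACGTG alone the share of all windows was 16.6% and for GCGTG 28.2%. Bnip3 had 5 matches, Hif1a 3, Ddit4, Egln1 and Adm 2 each, and Egln3 1. In Bnip3 and Hif1a these counts include a CACGTG that matched once on each strand, so 2 of their matches share 1 site. The Bnip3 and Ddit4 windows are shown because these genes were highest in different groups, and the Egln1 window because Egln1 was lowest in the BCR/ABL groups. Each is read 5′ to 3′ on the strand of the gene, with matches to either core on either strand in capitals. The windows are chr7:138909507-138909756 for Bnip3, chr10:59951771-59952020 for Ddit4 and chr8:124949255-124949504 for Egln1, all on the minus strand.
Bnip3: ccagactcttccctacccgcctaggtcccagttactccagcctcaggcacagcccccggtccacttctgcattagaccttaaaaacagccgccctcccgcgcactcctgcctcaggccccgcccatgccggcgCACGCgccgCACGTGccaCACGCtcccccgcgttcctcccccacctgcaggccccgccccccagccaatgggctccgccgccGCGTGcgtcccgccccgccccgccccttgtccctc
Ddit4: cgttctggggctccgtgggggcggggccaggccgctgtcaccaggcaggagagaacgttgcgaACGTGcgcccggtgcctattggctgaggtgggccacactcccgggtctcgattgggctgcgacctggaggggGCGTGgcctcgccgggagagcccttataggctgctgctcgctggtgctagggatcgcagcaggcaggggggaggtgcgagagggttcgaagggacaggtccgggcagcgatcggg
Egln1: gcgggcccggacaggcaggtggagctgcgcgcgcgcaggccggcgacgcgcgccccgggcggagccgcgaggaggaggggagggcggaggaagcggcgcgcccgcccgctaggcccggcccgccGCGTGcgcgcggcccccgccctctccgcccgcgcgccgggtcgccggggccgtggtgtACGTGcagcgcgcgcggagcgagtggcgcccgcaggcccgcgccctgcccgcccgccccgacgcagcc
In the Bnip3 window, ACGTG matches on both strands overlap in the palindrome CACGTG, at 108 to 103 bases before the start, a hexamer found in 6.0% of all windows. The 2 matches of Ddit4 lay at 187 to 183 and 115 to 111 bases before its start. Those of Egln1 lay at 126 to 122 and 68 to 64 bases before its start. A match is a run of letters and does not show that a factor binds there.

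Arrays were compared on a log2(intensity + 16) scale after quantile normalization, on which the lowest possible value was about 4. The vector arrays differed most from each other: 3694 probe sets were more than 2-fold apart between the vector replicates, 860 between the BCR/ABL replicates and 1611 between the imatinib replicates. Among the 20 probe sets of the hypoxia genes these numbers were 3, 1 and 2. The ratio of 3-prime to 5-prime signal of the beta-actin control ran from 1.62 to 1.81 on the vector arrays, from 1.30 to 1.48 on the BCR/ABL arrays and from 1.55 to 1.74 on the imatinib arrays. Among the sorting antigens, Kit stood at 10.88 ± 0.25 (SD, n = 2) on the log2 scale for vector, at 10.25 ± 0.17 for BCR/ABL and at 11.39 ± 0.002 for imatinib. Ly6a, which encodes Sca-1, had no probe set of its own here. The summed intensity of 7 stem cell markers, Kit among them, was 8430 to 14039 for vector, 9785 to 10866 for BCR/ABL and 13111 to 16995 for imatinib. In BCR/ABL against vector 4 of these markers were higher and 3 lower. With imatinib against untreated BCR/ABL 7 were higher and 0 lower. Of 6 measured lineage antigens, Cd3e and Cd4 were below an intensity of 16 on at least 3 arrays. The summed intensity of all 6 was 3535 to 4066 for vector, 2557 to 3120 for BCR/ABL and 3566 to 3720 for imatinib. Ptprc made up most of these sums, with mean log2 levels of 11.73, 11.40 and 11.81 in that order. The sums hence say little about the other lineage antigens. Of the sums for other cell types, those of mast cell and basophil markers and of megakaryocyte markers were apart in all 3 groups. The other sums overlapped between at least some groups. The summed intensity of 10 mast cell and basophil markers was 11340 to 16604 on vector arrays, 42512 to 43029 on BCR/ABL arrays and 56183 to 66046 on imatinib arrays. That of 8 megakaryocyte markers was 1896 to 2083, 3445 to 4071 and 6816 to 7129 in the same order. That of 10 B lineage markers was 5070 to 25064, 1338 to 2492 and 706 to 1817, and of these Pax5 was below an intensity of 16 on all 6 arrays. Sums over 11 granulocyte markers were 51067 to 79818, 78625 to 89391 and 85155 to 90568. Those over 7 monocyte and macrophage markers and 8 erythroid markers overlapped between all 3 groups, and Hba-a1 was below 16 on all 6 arrays. The part of these cell types in the results that follow was not tested.

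Among the hypoxia genes 2 patterns are described here. Bhlhe40 and Bnip3 were highest in untreated BCR/ABL cells and lower with imatinib, though still above vector. The group means of Hif1a, Egln3, Epas1 and Adm had the same order, so it was not particular to this pair. Ddit4 and Ndrg1 were highest with imatinib, above every vector and every untreated BCR/ABL array. By 1 probe set per gene, these 2 of the 9 genes were higher than in untreated BCR/ABL without overlap, against 24.7% of all genes. At their leading probe sets the oxygen sensor genes and the HIF subunit genes had log2 differences between -0.37 and 0.63, and Adm and Epas1 were dim. None of these differences passed the test: limma called 0 of the 20 probe sets in any of the 3 comparisons at an adjusted p under 0.05, so levels and differences are given as values.

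**Figure D1:**
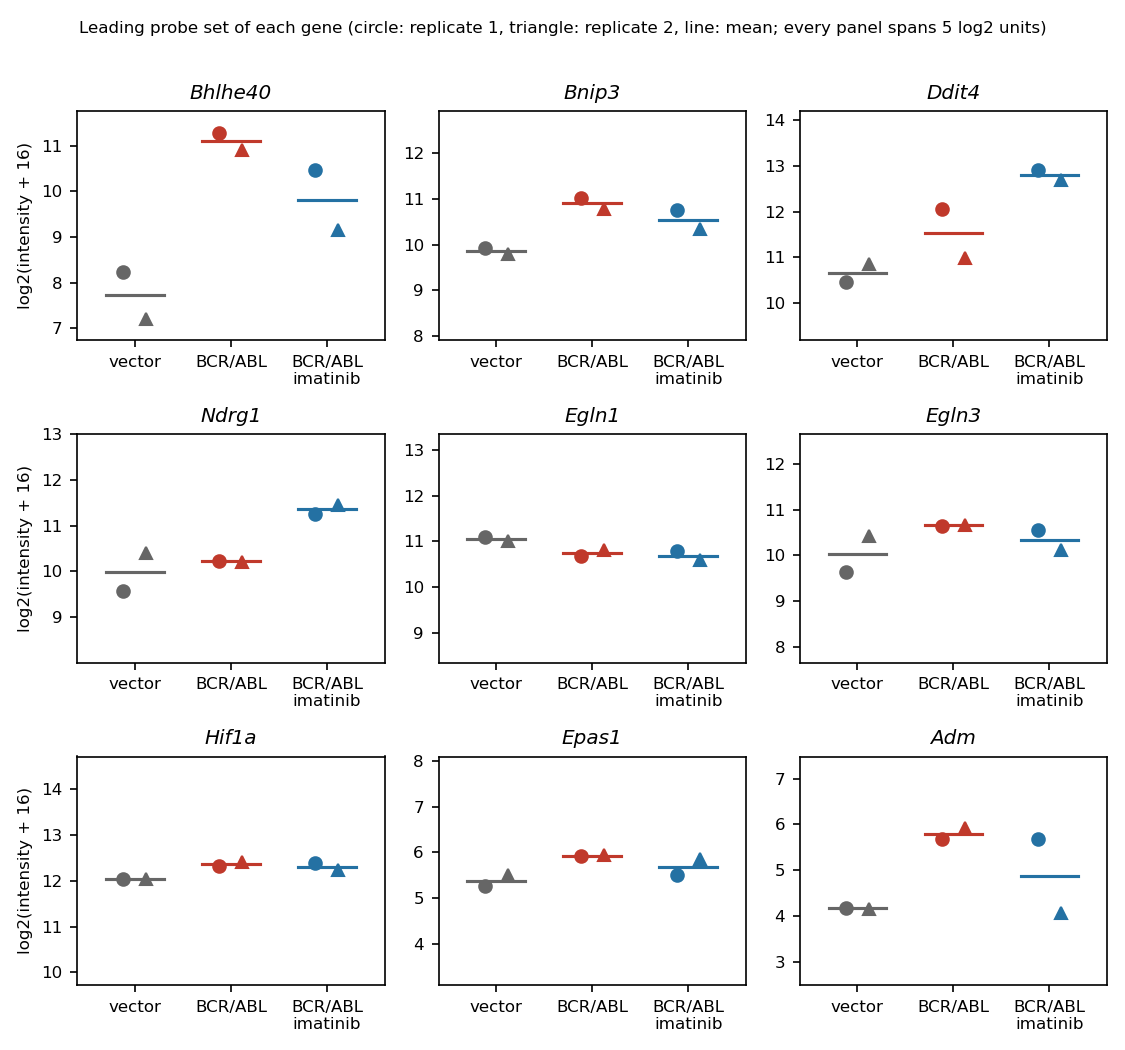
Level of the leading probe set of each of the 9 measured genes on the 6 arrays, on the log2(intensity + 16) scale, by group (circle replicate 1, triangle replicate 2, line the mean of 2). Bhlhe40 and Bnip3 peak in untreated BCR/ABL cells, at 11.09 and 10.90, while Ddit4 and Ndrg1 peak with imatinib, at 12.80 and 11.36.

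The comparison of BCR/ABL with vector set sorted cells of untreated CML mice against sorted cells with the empty vector. The kinase, the disease and the mix of cell types cannot be told apart in it. On this scale the largest difference among the hypoxia genes was that of Bhlhe40 (with 1 as the added constant that of the dim Adm was larger, at 3.79 against 3.47), which encodes a helix-loop-helix repressor linked to the circadian clock, immune cells and hypoxia. Its log2 levels were 8.24 and 7.21 on the vector arrays and 11.28 and 10.91 on the BCR/ABL arrays. Both BCR/ABL values thus lay above the vector values, although the vector pair was itself wide. As deposited, its intensity was 302 and 126 in vector against 2521 and 1907 in BCR/ABL. The log2 difference was 3.37 with a standard error of 0.52 and a 95% interval of 2.10 to 4.64, or 10.3-fold (limma adjusted p = 0.136), which ranked 169th of 35877 probe sets by p. Array median centring, in place of quantile normalization, put the median difference of all probe sets at 0.20, against 0.015 as tested. It brought the limma adjusted p of Bhlhe40 to 0.00236. Leaving out probe sets below the 30th or 50th percentile of signal brought its adjusted p to 0.0304 or 0.0314. Over all 17 alternatives its limma adjusted p ran from 0.00236 to 0.737. A level in such bulk samples cannot tell fewer cells of a type from less RNA per cell.

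Bnip3, which encodes a mitochondrial outer membrane protein that promotes mitophagy and cell death, had a smaller and tighter difference. Its log2 levels were 9.93 and 9.80 in vector and 11.02 and 10.78 in BCR/ABL, so the groups did not overlap. This was a log2 difference of 1.03 (SE 0.18, interval 0.59 to 1.47), or 2.05-fold (limma adjusted p = 0.169). It passed with array median centring (limma adjusted p = 0.0356), which put the median difference of all probe sets at 0.20, and in no other alternative.

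Ddit4 encodes an inhibitor of the growth kinase complex mTORC1, induced by hypoxia, glucocorticoids and other stresses. Its log2 levels were 10.47 and 10.86 in vector and 12.06 and 10.99 in BCR/ABL. BCR/ABL replicate 2 lay close to the higher vector array, and replicate 1 well above it. Between the groups the log2 difference was 0.86 (SE 0.35, interval 0.01 to 1.71, limma adjusted p = 0.430), and it was 0.32 without BCR/ABL replicate 1. Ndrg1, a stress-induced cytoplasmic gene also linked to cell differentiation, had log2 levels of 9.56 and 10.41 in vector against 10.23 and 10.21 in BCR/ABL at its brightest probe set. The BCR/ABL values lay inside the vector range there. Across its 5 probe sets the log2 difference ran from 0.22 to 0.38, and at the brightest it turned to -0.19 without vector replicate 1.

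Hif1a, the alpha subunit of HIF-1, had log2 levels of 12.04 on both vector arrays and 12.32 and 12.40 in BCR/ABL at its brightest probe set, a small difference with no overlap. It came to 0.33 (SE 0.09, interval 0.12 to 0.53, limma adjusted p = 0.305). Its other 3 probe sets gave 0.32 to 0.54, with overlap at 2 of them. Epas1, the alpha subunit of HIF-2, was dim: 1 of its 2 probe sets was below an intensity of 16 on all 6 arrays. The brighter had log2 levels of 5.26 and 5.51 in vector and 5.92 and 5.94 in BCR/ABL, a difference of 0.55 (limma adjusted p = 0.571).

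Egln1, the main oxygen-sensing prolyl hydroxylase, was the member that lay lower in BCR/ABL. At its brighter probe set the log2 levels were 11.10 and 11.01 in vector and 10.67 and 10.81 in BCR/ABL, a difference of -0.31 (SE 0.12, interval -0.61 to -0.01, limma adjusted p = 0.419). It was -0.076 with array median centring, and the other Egln1 probe set gave -0.067 (limma adjusted p = 0.951). Egln3, a related hydroxylase that HIF itself induces, had log2 levels of 9.64 and 10.42 in vector and 10.65 and 10.68 in BCR/ABL. Both BCR/ABL values lay above the vector pair, whose own gap was wider than the distance from its upper value. The log2 difference was 0.63 (SE 0.28, interval -0.06 to 1.33, limma adjusted p = 0.471), with 0.24 on leaving out vector replicate 1 and 1.03 on leaving out replicate 2. The second Egln3 probe set gave 0.40. Adm encodes adrenomedullin, a vasodilator peptide. At its brighter probe set, of a type whose probes can match more than 1 transcript, its log2 levels were 4.17 and 4.16 in vector, near the floor, and 5.68 and 5.91 in BCR/ABL. The difference of 1.63 (limma adjusted p = 0.351) was 3.79 with 1 and 0.66 with 64 as the added constant, so its size rests on that choice. The other Adm probe set was below an intensity of 16 on all 6 arrays.

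Over the whole table limma called 22 probe sets in this comparison, 0.0613% of those tested, and 0 of the 20 probe sets of the hypoxia genes. At an unadjusted p under 0.05 there were 6 of the 20, against 11.5% of all probe sets. Groups did not overlap at 10 of the 20 with BCR/ABL higher and at 2 with BCR/ABL lower, against 23.5% and 19.7% of all probe sets. By 1 probe set per gene, 7 of the 9 genes were higher and 1 lower without overlap, against 23.9% and 20% of all genes. The median log2 difference of the 9 genes was 0.63, with 8 higher and 1 lower, where the median of all 18193 genes was 0.01. Leaving out vector replicate 2 brought the median of the 9 genes to 0.97, and leaving out vector replicate 1 to 0.42.

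**Figure D2:**
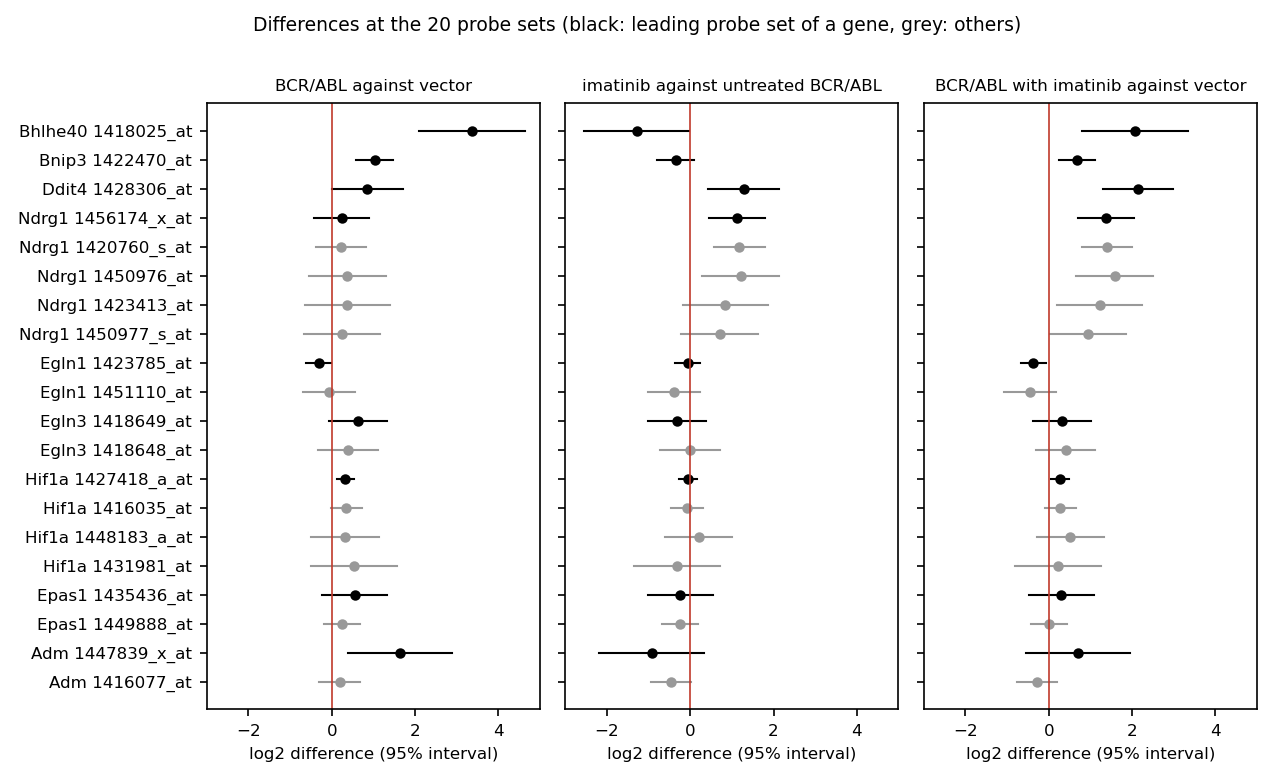
Log2 difference with its 95% interval at each of the 20 probe sets in the 3 comparisons (black, leading probe set of a gene; grey, the others). Bhlhe40 reaches 3.37 in BCR/ABL against vector, and the 5 probe sets of Ndrg1 lie between 0.71 and 1.21 for imatinib against untreated BCR/ABL.

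The comparison of imatinib with untreated BCR/ABL asked what differed between sorted cells of CML mice with and without the drug. The block of the kinase, other effects of the drug and the mix of cell types cannot be told apart in it. Ddit4 and Ndrg1 were higher with imatinib. The Ddit4 log2 levels were 12.91 and 12.69 with imatinib against 12.06 and 10.99 without. Both imatinib values exceeded the higher untreated value, and the untreated pair was the wider. This gave a log2 difference of 1.28 (SE 0.35, interval 0.43 to 2.13), or 2.43-fold (limma adjusted p = 0.186), and it was 0.74 without BCR/ABL replicate 2.

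At the brightest Ndrg1 probe set the log2 levels were 11.26 and 11.45 with imatinib against 10.23 and 10.21 without, a wide gap beside close replicates. The log2 difference there was 1.13 (SE 0.27, interval 0.46 to 1.80), or 2.19-fold (limma adjusted p = 0.162). At the probe set with the smallest p the levels were 10.41 and 10.50 against 9.38 and 9.17, a difference of 1.18 (limma adjusted p = 0.139). Both of these probe sets are, like that of Adm, of types whose probes can match more than 1 transcript. The 2 Ndrg1 probe sets of the plain type gave 1.21 and 0.85. All 5 probe sets of Ndrg1 had both imatinib arrays above all 4 other arrays, as did Ddit4. These were the 6 of the 20 probe sets with that pattern, which 10.2% of all probe sets showed. They stand for only 2 genes, and the share of all genes with that pattern was not computed, so the counts cannot show an excess.

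Bhlhe40 and Bnip3 were lower with imatinib, without reaching the vector level. The Bhlhe40 log2 levels were 10.46 and 9.14 with imatinib, a wide pair whose upper value lay under the untreated 11.28 and 10.91 and whose lower value lay far under them. Its log2 difference was -1.29 (SE 0.52, interval -2.56 to -0.02, limma adjusted p = 0.335), and it was -0.63 without imatinib replicate 2. The Bnip3 log2 levels were 10.75 and 10.35 with imatinib, and the higher lay close under the lower untreated value of 10.78. Its log2 difference was -0.35 (SE 0.18, interval -0.79 to 0.09, limma adjusted p = 0.448), and it was -0.15 without imatinib replicate 2 and -0.56 without imatinib replicate 1.

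The sensor and subunit genes had smaller differences at their leading probe sets. The log2 difference was -0.05 for Egln1 (interval -0.35 to 0.25), whose other probe set gave -0.38 with no overlap, and -0.05 for Hif1a (interval -0.26 to 0.15). It was -0.32 for Egln3 (interval -1.02 to 0.38) and -0.24 for Epas1 (interval -1.02 to 0.54). At Egln3 the second probe set gave 0.003, the opposite sign. One dimmer Hif1a probe set also differed in sign from the leading one, at 0.20. Adm split the imatinib pair, with log2 levels of 5.68 in replicate 1 and 4.06 in replicate 2, so its difference of -0.93 (limma adjusted p = 0.487) rests on 1 array.

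Over the whole table limma called 0 probe sets in this comparison, 0% of those tested. At an unadjusted p under 0.05 there were 5 of the 20 probe sets of the hypoxia genes, against 14.6% of all probe sets. Groups did not overlap at 6 of the 20 with imatinib higher and at 6 with imatinib lower, against 22.5% and 27% of all probe sets. The 6 higher were the 5 of Ndrg1 and that of Ddit4. By 1 probe set per gene, 2 of the 9 genes were higher and 4 lower without overlap, against 24.7% and 26.8% of all genes. The median log2 difference of the 9 genes was -0.24, with 2 higher and 7 lower, where that of all genes was -0.01.

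The comparison of imatinib-treated BCR/ABL cells with vector asked what differed from vector under the drug. No vector group was given imatinib, so BCR/ABL, the drug and the mix of cell types cannot be told apart in this comparison. It shares its vector arrays with the comparison of BCR/ABL and vector, and its imatinib arrays with the comparison just given, so the 3 sets of values are not independent. Ddit4 and Bhlhe40 had the larger differences, of like size. The Ddit4 log2 levels were 12.91 and 12.69 with imatinib against 10.47 and 10.86 in vector, with a wide gap and close pairs. The log2 difference was 2.14 (SE 0.35, interval 1.29 to 2.99), or 4.40-fold (limma adjusted p = 0.135). It passed with array median centring (limma adjusted p = 0.0203) and when probe sets below the 30th or 50th percentile of signal were left out (limma adjusted p = 0.0371 or 0.0334). Over the 17 alternatives its limma adjusted p ran from 0.0203 to 0.388.

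The Bhlhe40 difference was 2.08 (SE 0.52, interval 0.81 to 3.35, limma adjusted p = 0.209), and the lower imatinib array, at 9.14, still lay above both vector arrays. The 5 Ndrg1 probe sets gave 0.95 to 1.59, with 1.37 at the brightest (SE 0.27, interval 0.70 to 2.04, limma adjusted p = 0.163). The Bnip3 difference was 0.68 (SE 0.18, interval 0.24 to 1.12, limma adjusted p = 0.226). Egln1 was lower at both of its probe sets, with differences of -0.37 and -0.45 and no overlap at either. For Hif1a the difference was 0.27 (interval 0.06 to 0.48), for Epas1 0.30 (interval -0.48 to 1.08), for Egln3 0.31 (interval -0.38 to 1.01) and for Adm 0.71 (interval -0.55 to 1.96). The second Adm probe set went the other way, at -0.27.

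Limma called 16 probe sets in this comparison, 0.0446% of those tested, and 0 of the 20 probe sets of the hypoxia genes. At an unadjusted p under 0.05 there were 10 of the 20, against 13.8% of all probe sets, and 5 of those 10 were Ndrg1 probe sets. Groups did not overlap at 11 of the 20 with imatinib higher and at 3 with imatinib lower, against 19.7% and 22.4% of all probe sets. By 1 probe set per gene, 6 of the 9 genes were higher and 1 lower without overlap, against 21.8% and 22.3% of all genes. The median log2 difference of the 9 genes was 0.68, with 8 higher and 1 lower, where that of all genes was -0.001.

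**Figure D3:**
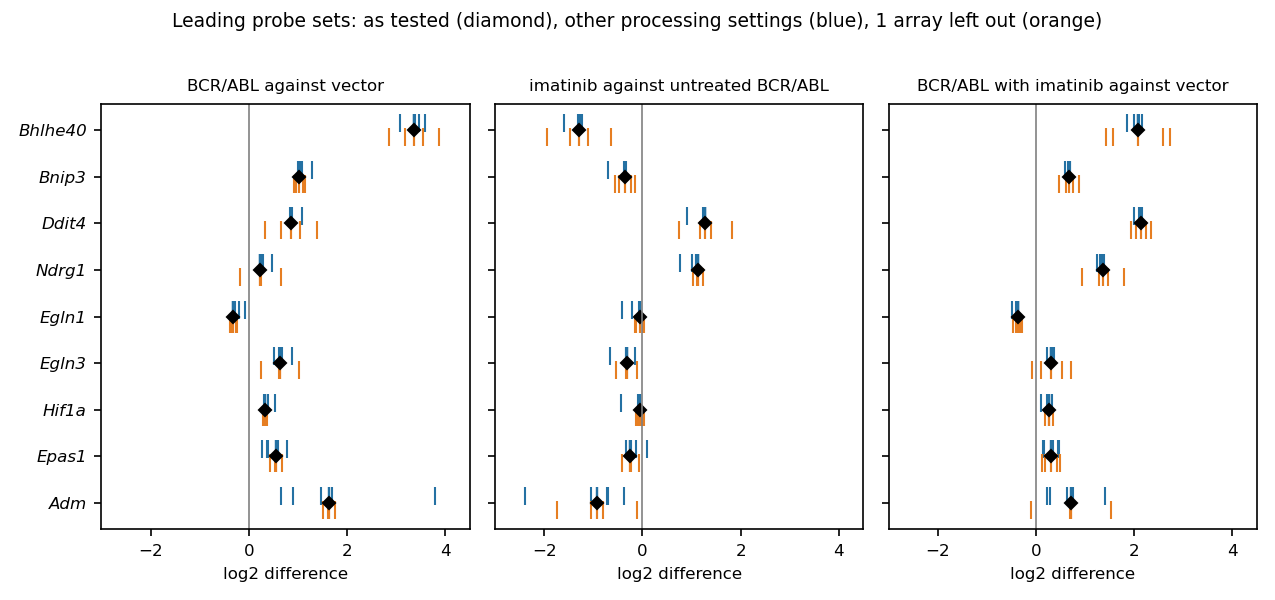
Log2 difference of each gene's leading probe set as tested (diamond), under other processing settings (blue) and with 1 array left out (orange). Bhlhe40 stays between 2.85 and 3.88 in BCR/ABL against vector, while Ndrg1 there runs from -0.19 to 0.66 as single arrays are left out.

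In order of level, BCR/ABL was followed by imatinib and then vector for Bhlhe40, Bnip3, Hif1a, Egln3, Epas1 and Adm at their leading probe sets. For Ddit4 and Ndrg1 the order was imatinib, BCR/ABL, vector, and for Egln1 it was vector, BCR/ABL, imatinib. Neighbouring groups overlapped for Ndrg1 between BCR/ABL and vector, for Egln1 and Hif1a between the BCR/ABL groups, for Egln3 between imatinib and vector, and for Adm on both sides of imatinib. Likeness of profile was measured as the root mean square difference between log2 profiles centred over the 6 arrays, against 18192 other genes. For Bhlhe40 the nearest genes were Cdkn2a at 0.26, Rnf128 at 0.33 and Hgf at 0.33. For Bnip3 they were Flrt2, Morrbid and C630043F03Rik, at 0.07 to 0.09. For Ddit4 they were Gna14 at 0.11, Eya2 at 0.20 and Aqp11 at 0.22, and for Ndrg1 Afm at 0.11, Galc at 0.13 and Isoc2b at 0.13. For Egln3 they were Ubtd2, Ube2d-ps and Nab2, at 0.06 to 0.07, and for Adm Pparg, Fam20c and Zfp365, at 0.20 to 0.25.

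Other genes of the pathway were read from 6 lists, with 1 probe set per gene, and limma called 0 of their genes in any comparison, where it called 0.104%, 0% and 0.0824% of all genes in the 3 comparisons, in the order used above. At an unadjusted p under 0.05 there were 22, 29 and 22 of their 67 measured genes, against 12.7%, 17% and 16.6% of all genes. The lists, like the hypoxia genes, were chosen with earlier results of these data known. The list of 25 further HIF target genes had a median log2 difference of 0.42 in BCR/ABL against vector, with 19 higher and 6 lower, where all genes had 0.01. Groups did not overlap for 14 of them with BCR/ABL higher and 4 lower, against 23.9% and 20% of all genes. Stc2, a secreted glycoprotein gene, had the largest difference, with levels of 6.87 ± 0.53 (SD, n = 2) against 4.39 ± 0.25, a difference of 2.47 (limma adjusted p = 0.124). The vector level was near the floor of the scale, where the size and rank of a difference rest on the added constant, and no other constant was tried for this gene. Ero1a, an oxidase of the endoplasmic reticulum, had levels of 12.97 ± 0.07 against 11.48 ± 0.08, a difference of 1.49 (limma adjusted p = 0.0751). The ankyrin repeat gene Ankrd37 followed at 1.11 (limma adjusted p = 0.373).

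With imatinib against untreated BCR/ABL the same list had a median of -0.36, with 7 higher and 18 lower, where all genes had -0.01. Here 12 genes lay lower without overlap and 6 higher, against 26.8% and 24.7% of all genes. Stc2 was at -2.46 (limma adjusted p = 0.108), with a level of 4.41 ± 0.35 that was again near the floor. Positive values included those of Rora, a nuclear receptor gene, at 2.04 (limma adjusted p = 0.156), and P4ha2, a collagen prolyl hydroxylase gene, at 0.91 (limma adjusted p = 0.287), where the untreated level of 4.14 was near the floor. Against vector, imatinib-treated cells had a list median of 0.06 and no overlap for 7 genes higher and 2 lower, against 21.8% and 22.3% of all genes, led by Ero1a at 1.24 (limma adjusted p = 0.116), Rora at 1.06 (limma adjusted p = 0.408) and the glucose transporter gene Slc2a3 at 0.79 (limma adjusted p = 0.0805).

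The 13 genes of the HIF machinery, which includes HIF partners, VHL and its ligase partners, had medians of 0.05, 0.19 and 0.11 in the same order. Hif3a, a HIF alpha relative, had the largest value in each, at 1.14, 0.85 and 1.99 (limma adjusted p = 0.573, 0.639 and 0.294), and its imatinib level spread widely, at 8.48 ± 1.41 (SD, n = 2). With imatinib against untreated BCR/ABL, Arnt, the HIF partner, was at 0.60 (limma adjusted p = 0.172), and its relative Arnt2, which was dim, at -0.45 (limma adjusted p = 0.695).

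Among 5 paralogs of the hypoxia genes, Ndrg2, a relative of Ndrg1, stood at 6.95 ± 0.34 (SD, n = 2) for vector, at 8.91 ± 0.01 for BCR/ABL and at 9.20 ± 0.24 for imatinib. Its differences were 1.95 for BCR/ABL against vector (limma adjusted p = 0.119) and 2.24 for imatinib-treated cells against vector (limma adjusted p = 0.110). The medians of this list were 0.24, -0.01 and 0.08. Calcrl, Ramp1, Ramp2 and Ramp3, a list of 4 genes read beside Adm, had medians of -0.33, 0.43 and 0.17. Calcrl, which encodes a part of the adrenomedullin receptor, was at -0.43 in BCR/ABL against vector (limma adjusted p = 0.374). With imatinib against untreated BCR/ABL it was at 0.67 (limma adjusted p = 0.141). There Ramp1 was at 0.47, and Ramp2 and Ramp3, both dim, were at -0.76 and 0.38 (limma adjusted p = 0.249, 0.353 and 0.816).

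For mitophagy genes, the process Bnip3 serves, 8 members had medians of 0.05, 0.30 and 0.46. Pink1, a kinase that marks damaged mitochondria, was at -0.44 in BCR/ABL against vector (limma adjusted p = 0.307) and at 1.24 with imatinib against untreated cells (limma adjusted p = 0.102). Ulk1, a kinase that starts autophagy, was at 1.06 in the latter (limma adjusted p = 0.150). The 12 genes around Ddit4 and mTORC1 had medians of 0.07, 0.03 and 0.17. In BCR/ABL against vector, Castor1, an arginine sensor gene, was at 1.11 and the stress-induced Sesn2 at 0.97, while Sesn1 was at -0.83 (limma adjusted p = 0.374, 0.395 and 0.385). With imatinib against untreated BCR/ABL, Sesn1 was at 0.98 and Txnip, a thioredoxin inhibitor gene, at 0.90 (limma adjusted p = 0.213 and 0.108).

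**Figure D4:**
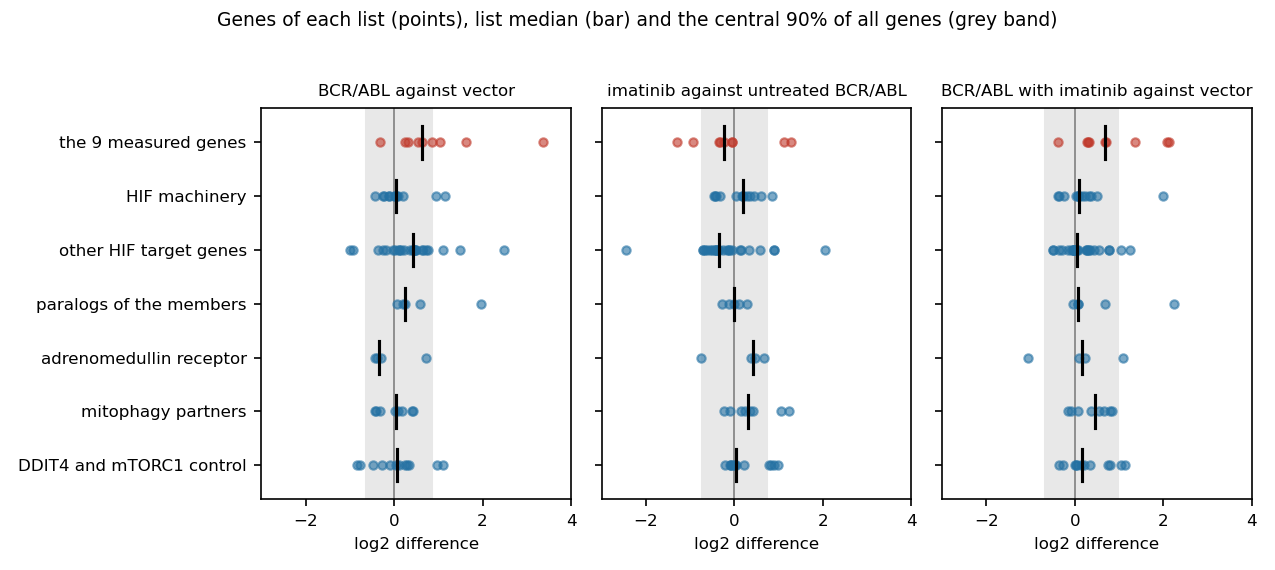
Log2 difference of each gene of the 6 lists and of the 9 measured hypoxia genes in the 3 comparisons, with list medians as bars and the central 90% of all genes as a grey band. The median of the 25 further HIF target genes lies at 0.42 in BCR/ABL against vector and at -0.36 with imatinib against untreated BCR/ABL.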

How the data were processed

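The deposited table holds an intensity on a linear scale for each probe set, scaled by the authors so that the mean without the outer 2% at each end was 500.002 on every array. Affymetrix Expression Console and MAS5 produced it, per the submitters' processing notes (versions not given there). The design text names a whole-transcript array, but the probe set identifiers are those of an older 3-prime mouse array. Of 45101 probe sets, 64 controls were left out and 35877 with a symbol were tested. The deposited intensity values were transformed to log2(value + 16) and quantile normalized, since array medians ran from 5.69 to 6.19 on that scale. Limma 3.58.1 in R 4.3.3 (lmFit, eBayes with trend) fitted 3 groups in 1 model, two-sided, with Benjamini-Hochberg adjustment over all tested probe sets, and was tested on simulated data. A gene's leading probe set had the highest mean over all arrays. All 10 members were named, and from each list any gene that passed and up to 3 with the largest difference in a comparison. Members and lists were chosen with earlier results of these data known. Detection calls were not used, so dim values cannot be told from background, and precision is limited by having 2 arrays per group. Alternatives covered scaling, the added constant, filters, the variance prior, the replicate number, averaging and leaving out each array.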

Additional observations from a re-analysis of the deposited data

How the results depend on the processing

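None of the 9 genes passed the test in any comparison as tested, and of 453 recomputed gene differences 439 kept their direction and stayed short of the threshold, 7 passed it and 7 turned sign. The 7 that passed are the Bhlhe40, Bnip3 and Ddit4 values given above. The cause was not tested for any of these. Results are given below for BCR/ABL against vector first, then for imatinib against no drug, and last for imatinib-treated cells against vector. As tested, probe sets called numbered 22, 0 and 16, those of the hypoxia genes 0, 0 and 0, and the median log2 difference of the genes was 0.63, -0.24 and 0.68. Array median centring put the median difference of all probe sets at 0.20, -0.27 and -0.09, against 0.015, -0.013 and -0.008 as tested. It gave 298 calls (265 higher, 33 lower), 1200 (67 higher, 1133 lower) and 275 (201 higher, 74 lower, against 15 and 1 as tested), 2, 0 and 1 calls among the hypoxia genes, and medians of 0.88, -0.43 and 0.59. The scaling as deposited gave a median of -0.10 for imatinib against untreated BCR/ABL and turned Epas1 there to 0.087. With 1 as the added constant there were 83, 3 and 78 calls and a median of 0.79 for BCR/ABL against vector. With 64 the last comparison had 3 calls, and the medians were -0.13 and 0.30 in the comparisons with imatinib. Above the 30th percentile there were 189, 142 and 188 calls, and above the 50th 132, 211 and 181, with 1, 0 and 1 among the hypoxia genes under each. The 50th percentile left out Epas1 and Adm and gave a median of -0.055 for imatinib against untreated BCR/ABL. A variance prior not tied to signal gave 0 calls in both comparisons with vector, and a robust prior 42 and 28. With only the 2 groups compared there were 0 calls for imatinib-treated BCR/ABL against vector. Averaging the probe sets of a gene gave 38 calls for BCR/ABL against vector, and medians of 0.52 and 0.36 in the comparisons with vector.

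Leaving out 1 array, with a lone array assumed to vary like the other groups, gave 0 to 38 calls for BCR/ABL against vector and 0 to 54 for imatinib-treated BCR/ABL against vector. Medians ran from 0.42 to 0.97, from -0.24 to -0.10 and from 0.48 to 0.88. Signs turned for Ndrg1 in BCR/ABL against vector (-0.19 to 0.66), for Egln1 (-0.15 to 0.038) and Hif1a (-0.13 to 0.025) with imatinib against untreated BCR/ABL, and for Egln3 (-0.079 to 0.71) and Adm (-0.11 to 1.52) with imatinib against vector. With the replicate number as a block there were 22, 0 and 9 calls and 0 among the hypoxia genes. Deviations of same-numbered arrays correlated at -0.08, 0.15 and 0.16 over probe sets. The labels give the numbers no shared animal or batch, and 2 pairs in each comparison cannot settle whether one exists.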

Other observations

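Further genes were chosen after their values were seen. Kdm3a, a histone demethylase gene that HIF induces, was on the list of further HIF target genes, whose median was negative for imatinib against untreated BCR/ABL. Its log2 level was 9.97 ± 0.12 (SD, n = 2) for vector, 9.61 ± 0.05 for BCR/ABL and 10.51 ± 0.06 for imatinib, a difference of 0.90 for imatinib against untreated BCR/ABL (limma adjusted p = 0.108). Vhl, whose protein takes HIF to destruction, was at 0.43 in the same comparison (limma adjusted p = 0.144).

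One Hif1a probe set was higher in replicate 1 than in replicate 2 of each group, with log2 levels of 9.47 against 9.16 (vector), 9.96 against 9.32 (BCR/ABL) and 10.21 against 9.46 (imatinib). At the brightest Hif1a probe set the same pairs were 12.04 on both arrays, 12.32 against 12.40 and 12.39 against 12.23.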
